A study of Rattus norvegicus with 11 samples.

Results

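The receptors by which rat liver senses drugs, bile acids, sterols and fatty acids were followed across 11 Affymetrix arrays as 10 genes: Nr1i3, Nr1i2, Ahr, Arnt, Rxra, Nr1h4, Nr1h3, Ppara, Hnf4a and Nr0b2. They were chosen by name, as the probe sets whose only gene symbol in the platform annotation is one of these. This gave 13 of 31042 probe sets and 10 of 14218 genes with a probe set of a single symbol. Hnf4a had 3 probe sets, Ahr had 2 and every other gene had 1, and the brightest over the 11 arrays stood for its gene. Liver RNA came from 8 Wistar rats that received mequindox, a quinoxaline N-oxide antibacterial used in livestock, at the level labelled high-dosed (animals 2, 3, 4, 5, 6, 8, 10 and 11), and from 3 Wistar rats labelled control (animals 1, 2 and 9), with 1 array each. All animals were labelled week 9 of age apart from high-dosed animal 8, labelled week 10. The labels give neither the amount of drug, its route and the length of treatment, nor what the controls received or the animals' sex. The study picked both groups for arrays after liver metabolite profiles and clinical chemistry were known.

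Nuclear receptors are transcription factors that bind small fat-soluble ligands and then switch their target genes. CAR (Nr1i3) and PXR (Nr1i2) respond to foreign chemicals and drive genes of drug oxidation, conjugation and export. FXR (Nr1h4) senses bile acids, LXR alpha (Nr1h3) senses oxysterols and PPAR alpha (Ppara) senses fatty acids, and each binds DNA as a pair with RXR alpha (Rxra). AhR is not a nuclear receptor but a basic helix-loop-helix PAS protein that pairs with ARNT after binding planar aromatic ligands. HNF4 alpha (Hnf4a) maintains the hepatocyte programme, and SHP (Nr0b2) lacks a DNA-binding domain and represses other receptors. Much of this signalling acts on receptor proteins through ligands, location and phosphorylation, and array signals report messenger RNA.

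Liver identity was checked first. Alb, the hepatocyte secretory protein albumin, gave 33648.1 to 34328.2 intensity units in high-dosed animals and 33424.3 to 34253.7 in controls. Its highest value was the highest of the whole table, 34328, so Alb shows that hepatocyte RNA was present but may be saturated and is no measure of a difference. The summed intensity of 14 hepatocyte marker genes was 280409 to 293482 in high-dosed animals and 285258 to 286046 in controls. Median intensities of the arrays lay between 149 and 186.6, and high-dosed animals 8, 10 and 11 held the 3 lowest medians. These 3 animals also stood apart on the first principal component, at 17.8 to 27.3 against -12.1 to -1.5 for the other high-dosed animals and -20.7 to -8.2 for controls. Results for members are therefore also given without them where that changed a direction or a call. All p-values measure the spread between animals.

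Of the 10 genes, 9 passed the signal filter and were tested, 1 (Nr1i3) rose, 0 fell and 8 did not pass at an adjusted p below 0.05 (limma with Benjamini-Hochberg adjustment over 10714 genes). Across all genes tested, 10.6% were called in either direction, 7.91% as higher and 2.74% as lower. A count of 1 in 9 lies near that background, so it is no result about the receptors as a group. The groups overlapped for all 9 tested brightest probe sets, where 12.1% of all genes tested had groups that did not overlap. Fold changes are high-dosed over control on the scale log2(intensity + 55.26), which understates changes of dim probe sets. An intensity is in the linear units of the deposited table, and intensities of different probe sets are not comparable with each other.

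**Figure D1:**
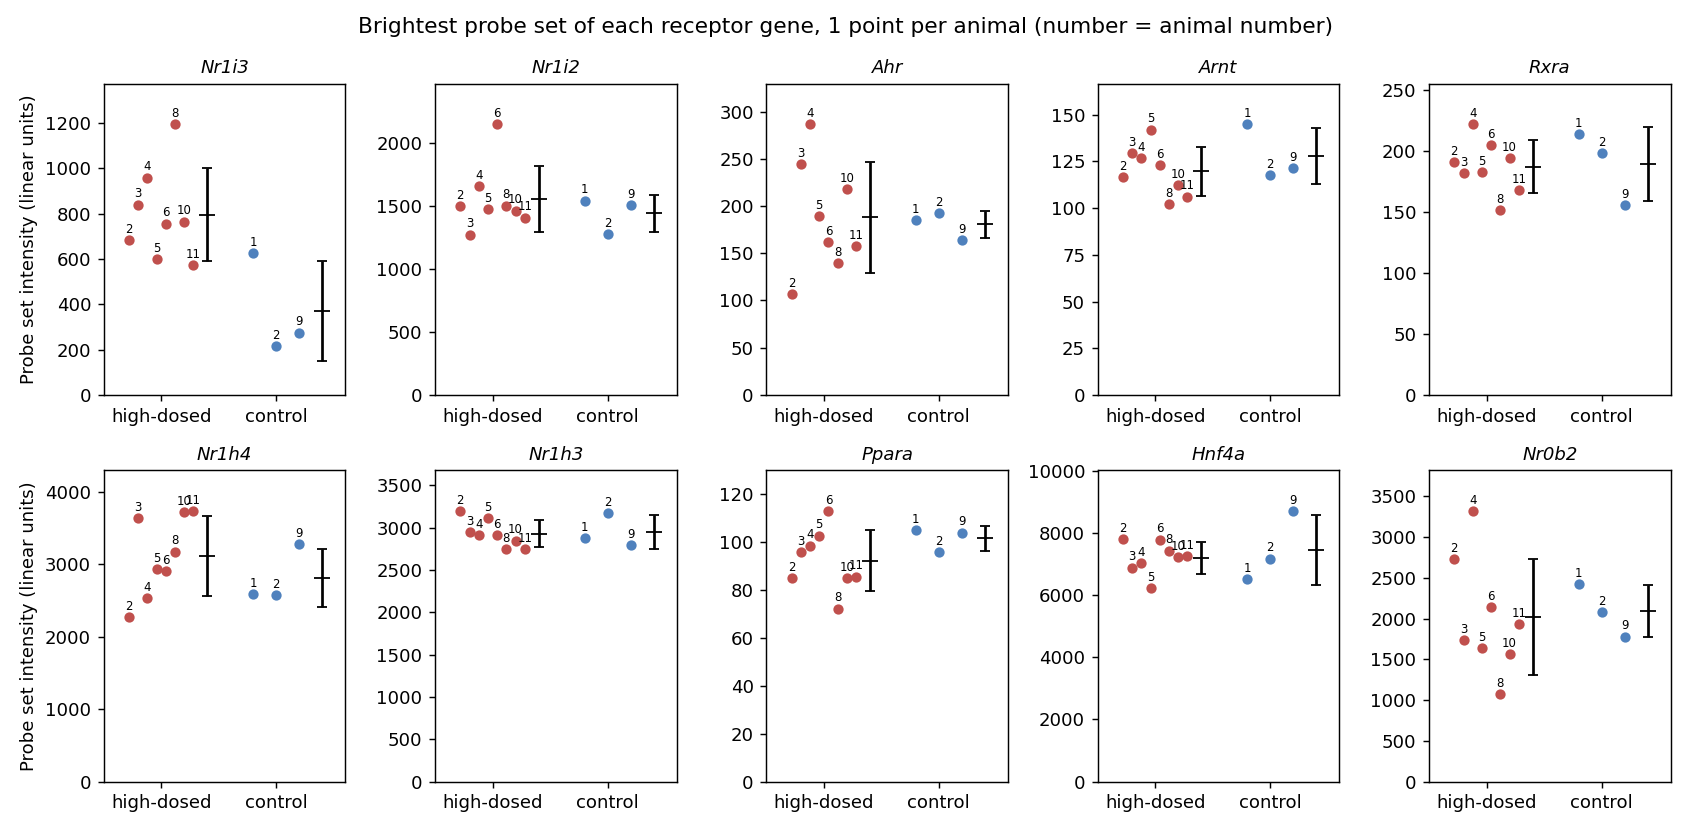
Intensity of the brightest probe set of each of the 10 genes (y axes, linear units from 0) in 8 high-dosed and 3 control animals, 1 point per animal with its number; black marks are group means with SD. For Nr1i3 the high-dosed animals lie between 573.8 and 1195.2 and controls 2 and 9 at 216.3 and 275.4, with control 1 at 624.7; for the other 9 genes the groups overlap.

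The 4 stretches of 300 bases around annotated transcript starts are shown because they belong to the genes that the results turn on: Nr1i3, which rose; both starts listed for Hnf4a, whose probe sets differed in their change; and Nr0b2, which varied most between animals among the genes without a group difference. Each runs 5′ to 3′ on the plus strand, from 250 bases before the start to 50 after, and comes from RefSeq on assembly GRCr8, a build not tied to the array's probes. Capitals mark the letters of a motif searched for.
Nr1i3, chr13:86165170-86165469: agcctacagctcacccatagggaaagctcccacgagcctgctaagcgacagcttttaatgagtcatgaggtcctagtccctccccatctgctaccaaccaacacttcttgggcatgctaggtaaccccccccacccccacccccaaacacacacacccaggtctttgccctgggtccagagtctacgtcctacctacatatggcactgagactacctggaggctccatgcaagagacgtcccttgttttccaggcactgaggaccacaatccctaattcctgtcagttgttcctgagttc
Hnf4a upstream start, chr3:172605970-172606269: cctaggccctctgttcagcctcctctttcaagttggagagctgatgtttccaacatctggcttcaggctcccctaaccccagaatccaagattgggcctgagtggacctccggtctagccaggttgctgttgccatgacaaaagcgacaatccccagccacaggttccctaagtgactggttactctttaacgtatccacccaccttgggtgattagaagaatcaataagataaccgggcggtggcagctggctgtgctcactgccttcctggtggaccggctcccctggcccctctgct
Hnf4a downstream start, chr3:172641586-172641885: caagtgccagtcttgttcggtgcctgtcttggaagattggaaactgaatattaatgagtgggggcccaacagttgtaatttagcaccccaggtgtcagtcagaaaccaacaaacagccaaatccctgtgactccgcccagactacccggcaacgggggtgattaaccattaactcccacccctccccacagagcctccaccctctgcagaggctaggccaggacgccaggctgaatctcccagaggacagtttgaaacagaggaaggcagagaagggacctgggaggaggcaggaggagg
Nr0b2, chr5:151062910-151063209: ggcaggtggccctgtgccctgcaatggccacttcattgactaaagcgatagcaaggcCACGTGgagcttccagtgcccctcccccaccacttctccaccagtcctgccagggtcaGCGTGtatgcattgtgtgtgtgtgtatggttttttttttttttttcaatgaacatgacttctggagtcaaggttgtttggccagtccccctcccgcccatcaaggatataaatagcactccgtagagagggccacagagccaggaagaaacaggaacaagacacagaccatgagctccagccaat
The 6 motifs were searched on both strands of the 10 promoters listed for 9 of the 10 genes. They were the nuclear receptor core AGGTCA (in 16.2% of 33469 RefSeq promoters of the same length), that core repeated in the same direction after 1 base (0.0538%) or in the opposite direction after 1 base (0.0269%), the AhR core GCGTG (29.7%), the E-box CACGTG (6.42%) and the HNF4 site CAAAGTCCA (0.391%). Both repeats contain the single core. The Nr0b2 promoter held 1 E-box, with its first base 193 bases before the start, and 1 AhR core, 135 bases before it. Arnt held 1 AhR core and Ppara held 5, and the windows of Nr1i3 and both Hnf4a starts held 0 of the 6 motifs. A match is a run of letters and not a measured binding site.

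Nr1i3, the gene of CAR, was higher in the livers of the high-dosed animals. Its probe set 1368797_at had a lowest intensity of 573.8, a median of 760.7 and a highest of 1195.2 in the 8 high-dosed animals. It had 624.7, 216.3 and 275.4 in controls 1, 2 and 9. All 8 high-dosed animals were above the control mean and 6 were above every control, while animals 5 and 11 (598.4 and 573.8) lay below control 1, so the groups overlapped. The means were 796 ± 204 in high-dosed animals (SD, n = 8) and 372 ± 221 in controls (SD, n = 3). High-dosed over control, this was a log2 fold change of 1.08 (SE 0.253, 95% interval 0.53 to 1.63), or 2.11-fold, with a limma adjusted p of 0.0194. An exact two-sided permutation test over the 165 arrangements of the animals gave p = 0.0182, where the smallest possible value is 0.00606.

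The size of the Nr1i3 change rested on which controls entered. Without control 1 the log2 fold change was 1.47 (adjusted p = 0.00566). Without control 2 it was 0.81 (adjusted p = 0.0938) and without control 9 it was 0.95 (adjusted p = 0.0778), so the call was lost in both cases with the direction kept. Within animals numbered 6 and below it was 0.92 (adjusted p = 0.111), and within animals numbered 8 and above it was 1.39 (adjusted p = 0.094). The last of these has 1 control, takes its spread from 3 high-dosed animals alone and called 3 of 10714 genes in all, so a lost call there says little. It was 1.05 without high-dosed animals 8, 10 and 11 (adjusted p = 0.0395). These adjusted p are from limma. In bulk liver, a change in the number of cells that hold a messenger and a change in its amount per cell cannot be told apart.

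Nr1i2, the gene of the pregnane X receptor PXR, did not pass the test. Its intensity was 1271.5 at the lowest, 1486.1 at the median and 2146.3 at the highest in high-dosed animals, against 1540.9, 1273.6 and 1504.8 in controls 1, 2 and 9. High-dosed animal 6 was the highest of all 11, and the other 7 high-dosed animals lay between 1271.5 and 1656.6. Nr1i2 thus had a log2 fold change of 0.09 (SE 0.122, 95% interval -0.17 to 0.36, limma adjusted p = 0.674). A change of the size measured for Nr1i3 lay outside that interval.

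Ahr varied more between high-dosed animals than between controls. Its brightest probe set, 1369146_a_at, had 106.4 at the lowest (animal 2), 175.2 at the median and 286.6 at the highest (animal 4) in high-dosed animals. Controls 1, 2 and 9 had 184.8, 192.4 and 164.2. The highest value was 2.69 times the lowest among high-dosed animals and 1.17 times among controls. A range grows with the number of animals, and a difference in spread was not tested. Of the high-dosed animals, 3 lay above every control and 4 below every control. Between the groups the log2 fold change was 0.01 (SE 0.185, 95% interval -0.39 to 0.41, limma adjusted p = 0.981). The other probe set, 1369147_at, ran from 95.6 to 160.4 in high-dosed animals and from 109.9 to 131.3 in controls. On it the log2 fold change was -0.03 (SE 0.101, adjusted p = 0.869 over 18625 probe sets), and it turned to 0.01 without high-dosed animals 8, 10 and 11. On this second probe set animal 6 was the highest and animal 3 (132.2) came next. Animal 4, the highest on the first, had 120.1, and animal 2, the lowest on the first, had 98.6.

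Arnt, whose protein pairs with AhR and with the hypoxia factors, lay close to the floor of the test. Its high-dosed intensities were 102.2 at the lowest, 119.9 at the median and 142 at the highest, against 144.9, 117.6 and 121.3 in controls 1, 2 and 9. Its mean log2 signal of 7.47 was just inside the filter at 7.4, and Ppara, at group means of 7.20 in high-dosed animals and 7.29 in controls, was just outside. The log2 fold change of Arnt was -0.07 (SE 0.0828, 95% interval -0.24 to 0.11, limma adjusted p = 0.663). The deposited table held no detection calls, so it was not known on which arrays these dim probe sets exceeded background.

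Rxra, the common partner of the sensing receptors, showed no difference that passed. Its intensities were 151.3 at the lowest, 186.8 at the median and 221.8 at the highest in high-dosed animals, against 213.8, 198.3 and 155.7 in controls 1, 2 and 9. High-dosed animal 4 was above and animal 8 below every control, and the other 6 lay inside the control range. For Rxra the log2 fold change was -0.01 (SE 0.0979, 95% interval -0.22 to 0.20, limma adjusted p = 0.955). Its sign turned without high-dosed animals 8, 10 and 11, to 0.05.

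Among the lipid sensors, Nr1h4, the bile acid receptor FXR, had 2267.7 at the lowest, 3052.6 at the median and 3735.6 at the highest in high-dosed animals. Controls 1, 2 and 9 had 2593, 2577.7 and 3279.2. High-dosed animals 3, 10 and 11 were above every control and animals 2 and 4 were below every control. Nr1h4 had a log2 fold change of 0.13 (SE 0.146, 95% interval -0.18 to 0.45, limma adjusted p = 0.623). Nr1h3, the oxysterol receptor LXR alpha, was the steadiest of the 10 genes, with an SD of 0.0771 on the log2 scale over the 11 arrays. It had 2743.2 at the lowest, 2914.5 at the median and 3197.9 at the highest in high-dosed animals, against 2882, 3171 and 2794.7 in controls 1, 2 and 9. Nr1h3 had a log2 fold change of -0.01 (SE 0.0592, 95% interval -0.14 to 0.12, limma adjusted p = 0.937). It turned to 0.03 without high-dosed animals 8, 10 and 11.

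Ppara, the fatty acid receptor that drives fatty acid oxidation, lay under the signal filter and was not tested in the main fit. Its intensities were 72.2 at the lowest, 90.7 at the median and 113 at the highest in high-dosed animals, against 105, 95.7 and 104 in controls 1, 2 and 9. Of the high-dosed animals, 4 were below every control and 1 above, and the groups overlapped. With no filter its log2 fold change was -0.09 (SE 0.0795, 95% interval -0.26 to 0.08, limma adjusted p = 0.6 over 31042 probe sets).

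Hnf4a, the hepatocyte regulator, gave different answers from its 3 probe sets. The brightest, 1392969_at, had 6223.7 at the lowest, 7225.4 at the median and 7792.1 at the highest in high-dosed animals, against 6504.9, 7169.3 and 8699 in controls 1, 2 and 9. Control 9 was the highest of all 11 animals, and the log2 fold change was -0.04 (SE 0.0819, 95% interval -0.22 to 0.13, limma adjusted p = 0.777). Probe set 1382496_at had 629.6 at the lowest, 788.2 at the median and 1036.8 at the highest in high-dosed animals. Controls 1, 2 and 9 had 577, 478.9 and 466.9 on it, so every high-dosed animal was above every control. Groups that did not overlap were found for 9.85% of the 18625 probe sets tested. The means of 1382496_at were 792 ± 145 in high-dosed animals (SD, n = 8) and 508 ± 60.4 in controls (SD, n = 3). This probe set had a log2 fold change of 0.58 (SE 0.138, 95% interval 0.28 to 0.87), with a limma adjusted p of 0.0264 over all probe sets, of which 6.92% were called and 4.63% called as higher.

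Probe set 1369289_at of Hnf4a lay between these. It had 472.9 at the lowest, 600.3 at the median and 741.1 at the highest in high-dosed animals, against 543.4, 416.8 and 446.7 in controls 1, 2 and 9. High-dosed animal 2 was below control 1 and the other 7 were above every control. The log2 fold change was 0.35 (SE 0.127, 95% interval 0.08 to 0.63, limma adjusted p = 0.115), which did not pass. The call of 1382496_at was lost without any one of the controls, at 0.66 without control 1 (adjusted p = 0.064), 0.54 without control 2 (0.094) and 0.52 without control 9 (0.0937). When the 3 probe sets were averaged, the log2 fold change of Hnf4a was 0.30 (limma adjusted p = 0.0364). The gene is known to have 2 promoters with different first exons, of which the downstream one is the main one in adult liver; the RefSeq starts printed above lie 35.6 kb apart. Which transcripts each probe set reads is not annotated in the tables used here.

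**Figure D2:**
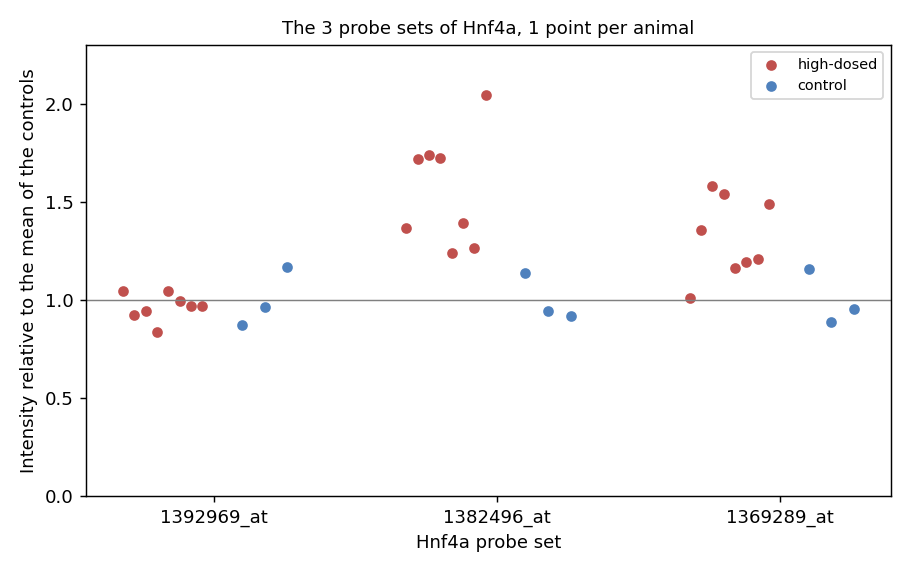
Intensity of the 3 Hnf4a probe sets divided by the mean of the 3 controls (y axis, ratio from 0), with high-dosed animals left of controls and 1 point per animal. On 1392969_at the groups overlap, on 1382496_at every high-dosed animal lies above every control, and on 1369289_at the lowest high-dosed animal lies within the control range.

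Nr0b2, the gene of the repressor SHP and itself a target of FXR, spread the most of the genes that did not pass. It had 1072.9 at the lowest (animal 8), 1836.7 at the median and 3321.8 at the highest (animal 4) in high-dosed animals. Controls 1, 2 and 9 had 2426.3, 2079.5 and 1779.2. The highest value was 3.1 times the lowest among the 8 high-dosed animals and 1.36 times among the 3 controls, and a difference in spread was not tested. Nr0b2 had a log2 fold change of -0.11 (SE 0.254, 95% interval -0.66 to 0.44, limma adjusted p = 0.815). That interval is wide, so a change of moderate size in either direction was not detectable with these animals. The sign turned without high-dosed animals 8, 10 and 11, to 0.10.

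**Figure D3:**
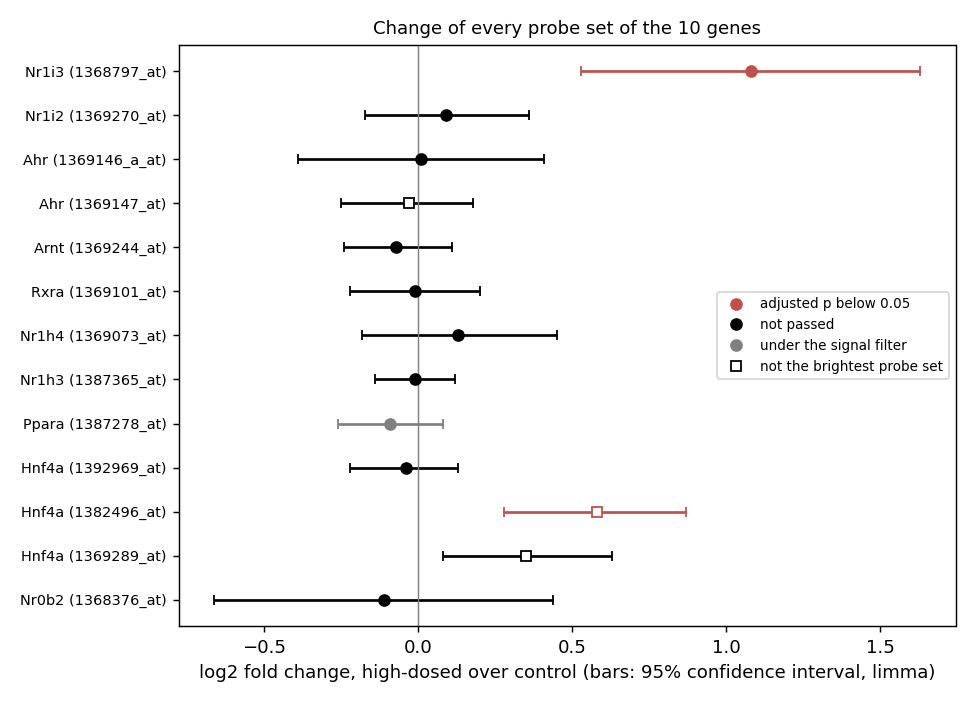
Log2 fold change, high-dosed over control, of all 13 probe sets of the 10 genes (x axis, points) with 95% intervals from limma (bars); filled circles are the brightest probe set of a gene, open squares the others, red those past an adjusted p of 0.05 and grey the 1 under the signal filter. Nr1i3 at 1.08 and Hnf4a probe set 1382496_at at 0.58 are the 2 that passed.

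Within the high-dosed group, means of animals 8, 10 and 11 and of animals 2 to 6 are given for some members. This is a description without a test, since these animals were set apart by their arrays. The share of all genes that differed in this way was not counted. Nr1h4 averaged 3540 ± 319 in animals 8, 10 and 11 (SD, n = 3) and 2860 ± 520 in animals 2 to 6 (SD, n = 5). Nr0b2 averaged 1520 ± 433 in animals 8, 10 and 11 and 2320 ± 709 in animals 2 to 6. For Nr1h3 the means were 2780 ± 60.3 in animals 8, 10 and 11 and 3020 ± 131 in animals 2 to 6. Arnt averaged 107 ± 5.01 and Ppara 81 ± 7.57 in animals 8, 10 and 11, against 128 ± 9.34 for Arnt and 99 ± 10.2 for Ppara in animals 2 to 6. Single animals of the 2 sets overlapped for Nr1h4, Nr0b2 and Ppara and did not for Nr1h3 and Arnt. The same 3 arrays had the lowest median intensities, and the part of array brightness in these values was not tested.

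The known targets of the receptors were read from lists, and the counts are set beside the 10.6% called among all genes. Of 17 measured genes known as CAR or PXR targets, 4 rose, 1 fell and 12 did not pass, with a median log2 fold change of 0.242 beside 0.017 for all genes tested. The rises were the export pumps Abcc2 and Abcc3, the retinal dehydrogenase Aldh1a1 and the glucuronosyltransferase Ugt2b1, and the fall was the cytochrome Cyp3a9. Abcc2, which moves conjugates into bile, had 6409.6 to 8496.2 in high-dosed animals and 5319.8, 5421.2 and 5359.9 in controls 1, 2 and 9, without overlap. Its log2 fold change was 0.48 (SE 0.0736, limma adjusted p = 0.00244). Cyp3a9 had 2849 to 6715.2 in high-dosed animals and 13022, 12347.3 and 9609 in controls, also without overlap. Cyp3a9 had a log2 fold change of -1.46 (SE 0.247, limma adjusted p = 0.00408). The classical PXR targets Cyp3a23-3a1 and Cyp3a2 did not pass, at 0.24 (SE 0.182, adjusted p = 0.446) and 0.32 (SE 0.14, adjusted p = 0.171). Cyp3a23-3a1 had 8489.6 to 13065.7 in high-dosed animals and 13316.5, 7778.6 and 7172.9 in controls 1, 2 and 9. For Cyp3a2 these were 167.3 to 267.3 and 216.6, 130.4 and 134.9. On both, controls 2 and 9 lay under every high-dosed animal and control 1 did not. With 1 animal left out their log2 fold changes ran from 0.07 to 0.52 and from 0.22 to 0.50. Neither passed under any alternative.

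Abcc3, the pump that returns conjugates to blood, had 672.1 at the lowest and 1016.9 at the highest in high-dosed animals, against 806.8, 212.9 and 233.4 in controls 1, 2 and 9. Control 1 lay inside the high-dosed range and controls 2 and 9 far under it, as for Nr1i3. In Cyp1a1, an AhR target, and in Cyp7a1, both given below, control 1 also lay inside that range and controls 2 and 9 under it. The share of all genes with this layout was not counted. The log2 fold change of Abcc3 was 1.18 (SE 0.275, limma adjusted p = 0.0188). Aldh1a1 had 5615.2 to 7792.2 in high-dosed animals and 5903.8, 3120.9 and 3292.1 in controls, with the same layout. Its log2 fold change was 0.75 (SE 0.16, limma adjusted p = 0.0124). Without control 2 the limma values were 0.88 for Abcc3 (adjusted p = 0.0909) and 0.59 for Aldh1a1 (0.0618), and without control 9 they were 0.94 (0.0861) and 0.63 (0.0593), so these calls were lost. The call of Abcc3 was also lost without high-dosed animals 8, 10 and 11 (1.20, adjusted p = 0.0532).

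**Figure D4:**
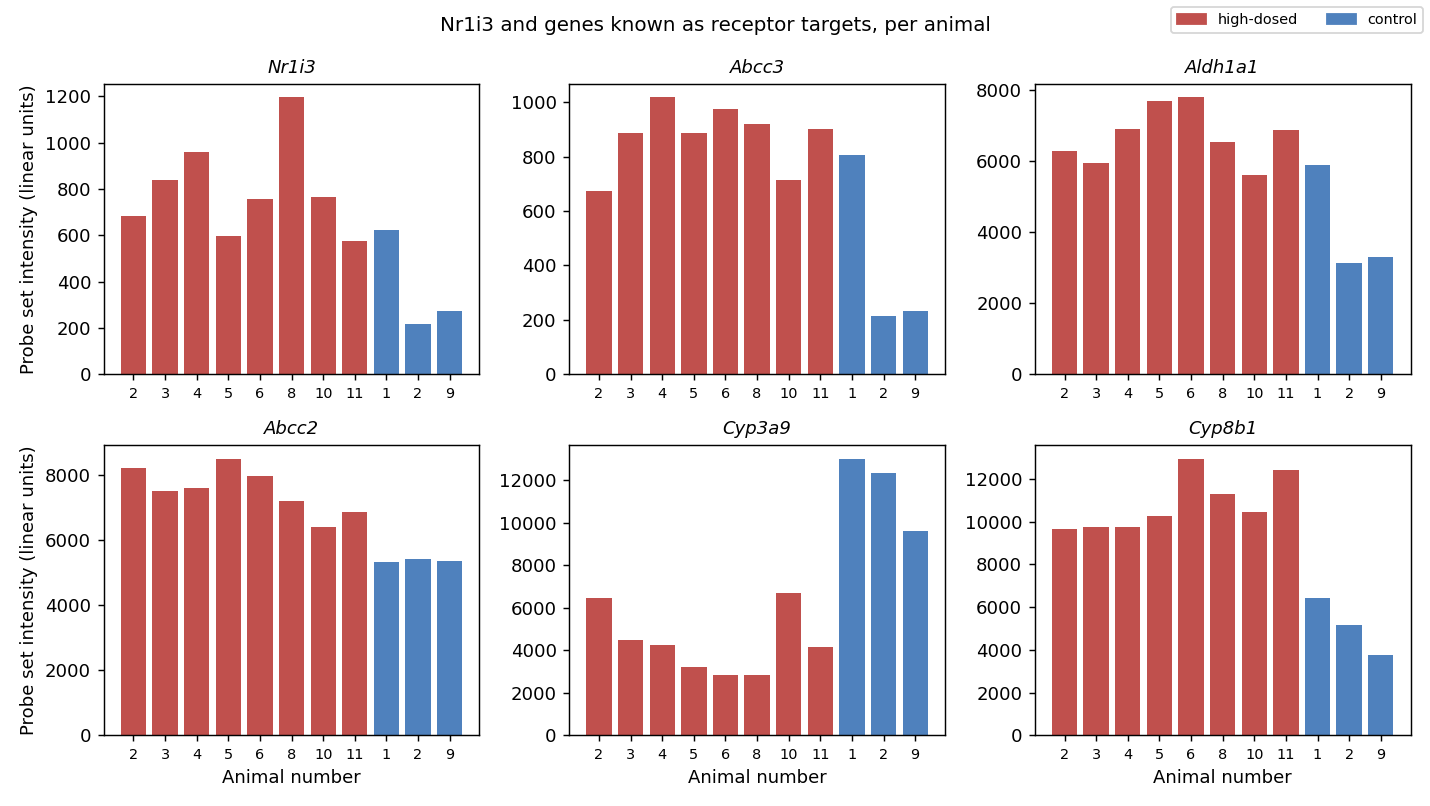
Intensity (y axes, linear units from 0) of Nr1i3 and 5 genes known as receptor targets in each animal, with the 8 high-dosed animals in red on the left and the 3 controls in blue on the right. In Nr1i3, Abcc3 and Aldh1a1 control 1 reaches the high-dosed range and controls 2 and 9 do not, while for Abcc2, Cyp3a9 and Cyp8b1 all 3 controls lie outside the high-dosed range.

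The genes whose signal was most like that of Nr1i3 over the 11 arrays were picked for that likeness, so their values describe the choice and support nothing about Nr1i3. Likeness was the root mean square difference of log2 signal, each gene taken relative to its own mean. Tested genes with symbols starting with LOC or RGD were left out of the search. Of the rest, the nearest were Abcc3 at 0.289, Hsd11b1 at 0.307 and Cela1 at 0.323, where the SD of Nr1i3 itself was 0.653. Hsd11b1, which regenerates active glucocorticoid, had 2866.2 to 5956.2 in high-dosed animals and 3276.9, 2030.3 and 1216.5 in controls 1, 2 and 9. Its log2 fold change was 1.11 (SE 0.256, limma adjusted p = 0.0183), a call lost without control 2 (1.12, adjusted p = 0.0535) or control 9 (0.76, 0.0812). Cela1, an elastase gene, had 732.9 to 1002.8 in high-dosed animals and 1118.8, 433.9 and 403.4 in controls. It did not pass with all arrays, at 0.52 (SE 0.22, adjusted p = 0.159), and passed without control 1 at 0.95 (adjusted p = 0.00153). For Nr0b2 (SD 0.424) the nearest genes were Pgf at 0.265, Lrrc4b at 0.272 and Tmem135 at 0.274, and for Ahr (SD 0.297) they were Ift70b at 0.18, Fbxo3 at 0.181 and Ccl4 at 0.181. None of these 6 passed the test.

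Of 7 tested AhR targets 1 rose, 1 fell and 5 did not pass. Cyp1a1, the most sensitive AhR target known, had 174.3 at the lowest, 367.7 at the median and 707.6 at the highest in high-dosed animals, against 420.7, 159.8 and 115.2 in controls 1, 2 and 9. Its spread was wide in both groups, and its log2 fold change was 0.67 (SE 0.401, limma adjusted p = 0.331). Cyp1a2, the main constitutive AhR target of liver, had a log2 fold change of -0.08 (SE 0.0389, adjusted p = 0.213). The quinone reductase Nqo1 fell by 0.51 (SE 0.126, limma adjusted p = 0.0249) while Nfe2l2, the gene of the stress factor NRF2 that is known to induce Nqo1, rose by 0.29 (SE 0.0775, adjusted p = 0.0359). Both calls were lost without control 1, at -0.48 for Nqo1 (adjusted p = 0.12) and 0.20 for Nfe2l2 (0.223), and without control 2, at -0.48 (0.0825) and 0.28 (0.0992). Nfe2l2 was also lost without any one of high-dosed animals 3, 5, 6, 8 and 11, with adjusted p up to 0.0577, without animals 8, 10 and 11 together (0.27, 0.102), under quantile normalization (0.26, 0.0607) and under median centring (0.26, 0.0804).

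Of 5 measured genes that SHP is known to repress, most of them of bile acid synthesis or uptake, 2 rose, 0 fell and 3 did not pass, with a median log2 fold change of 0.25. Cyp8b1, the sterol 12-alpha-hydroxylase that sets the share of cholic acid, had 9653.8 at the lowest, 10363.1 at the median and 12950.8 at the highest in high-dosed animals. Controls 1, 2 and 9 had 6429.6, 5164.3 and 3756.1, so the groups did not overlap. Cyp8b1 had a log2 fold change of 1.10 (SE 0.134, limma adjusted p = 0.000727), with Nr0b2 itself at -0.11. Cyp27a1, the sterol 27-hydroxylase of the alternative route, rose by 0.25 (SE 0.0593, adjusted p = 0.0205), a call lost without control 2 (0.17, 0.0934) or under median centring (0.23, 0.0739). Cyp7a1, the rate-limiting enzyme of the classical route, had 3829.4 to 6449 in high-dosed animals and 5071.5, 2355.1 and 2047.1 in controls. It just missed the threshold at 0.73 (SE 0.222, adjusted p = 0.0526) and passed without control 1 at 1.13 (adjusted p = 0.00372).

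Of 15 tested FXR targets 1 rose (Cyp8b1), 0 fell and 14 did not pass, with a median of -0.031. The list shares Cyp8b1, Cyp7a1 and Slc10a1 with the list of genes that SHP is known to repress. It thus mixes genes known to be induced and repressed, so its counts and median have no single direction. Abcb11, the bile salt export pump induced by FXR, had 6355 to 7194.5 in high-dosed animals and 6353.6 to 7210.9 in controls. The high-dosed values lay inside the control range, and the log2 fold change was 0.00 (SE 0.0515, limma adjusted p = 0.998).

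Of 13 tested LXR targets 1 rose, 2 fell and 10 did not pass, with a median of 0.129. Abcg5, which exports sterols into bile as part of a pair with Abcg8, had 46.5 to 130.4 in high-dosed animals and 648.4, 659.5 and 230.3 in controls 1, 2 and 9. The groups did not overlap, and its log2 fold change was -1.96 (SE 0.26, limma adjusted p = 0.00128). Its mean log2 signal of 7.07 in high-dosed animals was under the filter, against 9.03 in controls, so it entered the test through the controls and the size of the fall is uncertain, at -2.57 with no pseudocount. Mylip, a ubiquitin ligase that degrades the LDL receptor, rose by 0.66 (SE 0.126, adjusted p = 0.00728), and Mlxipl, a carbohydrate-responsive factor, fell by 0.40 (SE 0.108, adjusted p = 0.0355). Without control 1 both calls were lost, at 0.50 for Mylip (0.0537) and -0.32 for Mlxipl (0.205), and Mlxipl was also lost without control 9 (-0.33, 0.131) or high-dosed animal 4 (-0.40, 0.0552), and without high-dosed animals 8, 10 and 11 (-0.36, 0.08).

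Of 26 tested PPAR alpha targets 3 rose, 1 fell and 22 did not pass, with a median of -0.053. The rises were Cyp8b1, the pantetheinase Vnn1 and the carnitine palmitoyltransferase Cpt1a, and the fall was the pyruvate dehydrogenase kinase Pdk4. Vnn1 had a log2 fold change of 1.42 (SE 0.302, limma adjusted p = 0.0123), lost without control 9 (1.11, 0.0601). Pdk4 had 3034 to 4881.2 in high-dosed animals and 6214.1, 5869.5 and 6470.1 in controls. Its log2 fold change was -0.68 (SE 0.124, limma adjusted p = 0.00544), and its other tested probe set gave -0.52 (adjusted p = 0.105). Cyp4a1, the fatty acid hydroxylase most used as a PPAR alpha target in rat, did not pass, at -0.02 (SE 0.106, adjusted p = 0.941).

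Of 23 tested HNF4 alpha targets 5 rose, 0 fell and 18 did not pass, with a median of 0.032. The rises were Cyp8b1, Cyp27a1, Nr1i3 itself, the apolipoprotein gene Apoa1 and the glucose transporter gene Slc2a2. Apoa1 had a log2 fold change of 0.35 (SE 0.0785, limma adjusted p = 0.0153), lost without control 1 (0.35, 0.0737) or control 9 (0.24, 0.0658). Apoc3, a lipoprotein gene regulated by HNF4 alpha, did not pass, at -0.03 (SE 0.0208, adjusted p = 0.398).

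**Figure D5:**
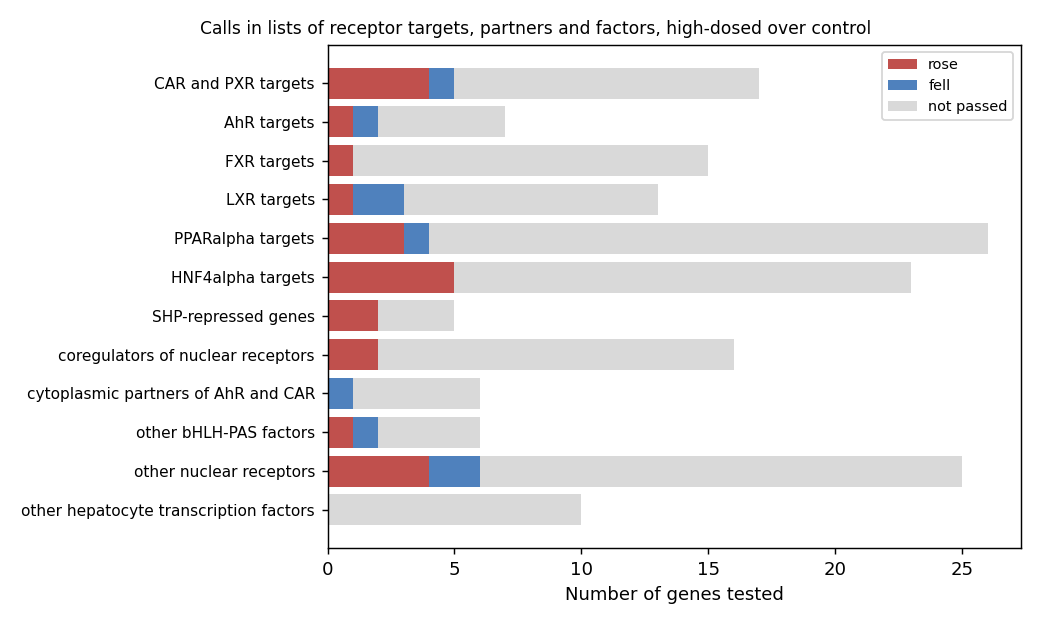
Number of tested genes (x axis) in each list of receptor targets, partners and related factors that rose (red), fell (blue) or did not pass (grey) at a limma adjusted p below 0.05, high-dosed over control. The lists overlap in their genes; among all genes tested 10.6% were called.

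Of 16 tested coregulators 2 rose, 0 fell and 14 did not pass, with a median of -0.016. Ppargc1a, a coactivator of PPAR alpha and HNF4 alpha, had 264.8 to 489.1 in high-dosed animals and 111.7, 128.2 and 182.2 in controls 1, 2 and 9, without overlap. Its log2 fold change was 0.99 (SE 0.144, limma adjusted p = 0.00182), and its other tested probe set gave 0.67 (adjusted p = 0.0102). The corepressor deacetylase Hdac3 rose by 0.24 (SE 0.0597, adjusted p = 0.0234), lost without control 1 (0.23, 0.121) or control 2 (0.25, 0.0631), and under quantile normalization (0.20, 0.0597). Of 6 tested genes listed as cytoplasmic partners of AhR and CAR, 0 rose, 1 fell and 5 did not pass. The list also holds Egfr, a membrane receptor, and Rack1, a scaffold. The one that fell was the chaperone Hsp90ab1, at -0.24 (SE 0.0597, adjusted p = 0.0238), lost without control 1 (-0.23, 0.121) or control 2 (-0.23, 0.0815), and without high-dosed animals 8, 10 and 11 (-0.25, 0.0652). The other tested probe set of Hsp90ab1 did not pass (-0.35, 0.0636).

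Of 6 tested relatives of AhR and ARNT 1 rose and 1 fell, and of 25 tested other nuclear receptors 4 rose, 2 fell and 19 did not pass. Among the relatives, Bmal1, the clock protein that shares the PAS domain, fell by 1.70 (SE 0.384, limma adjusted p = 0.0167), lost without control 1 (-1.67, 0.0812). Bmal1 had 52.5 to 444.6 in high-dosed animals and 551.6 to 598.3 in controls. High-dosed animals 2, 4, 5 and 6 lay under the filter level of 7.4, so the size of the fall is uncertain. Under the alternatives it ran from -2.15 to -1.03. Hif1a, the hypoxia factor that also pairs with ARNT, rose by 0.32 (SE 0.0806, adjusted p = 0.0271), lost without control 1 (0.29, 0.141) or control 9 (0.29, 0.0901), and without high-dosed animals 8, 10 and 11 (0.27, 0.0955). The receptors that rose were Nr1d1, Nr1d2, Nr2f2 and Rarg, and Rora and Ppard fell. Rarg lay at the threshold, at 0.31 (limma adjusted p = 0.0499), with Rora at -0.49 (0.023) and Ppard at -0.41 (0.037). Rarg, Rora and Ppard were not run under the alternatives. Nr1d1 and Nr1d2, heme-binding repressors of the clock, had log2 fold changes of 2.19 (SE 0.152) and 2.48 (SE 0.178), both with a limma adjusted p of 2.09e-05. Nr2f2 rose by 0.41 (SE 0.0468, adjusted p = 0.000426), while its other tested probe set gave 0.17 (adjusted p = 0.425), and the call was lost when its probe sets were averaged (0.175, 0.0819). Of 10 other hepatocyte transcription factors 0 passed.

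Markers of other liver cell types were read beside these results. The 12 tested endothelial markers summed to 16053 to 17888 in high-dosed animals and 13931 to 15938 in controls, without overlap, and 4 of them rose, with Ramp2 at 0.59 (SE 0.103, limma adjusted p = 0.00458) and Emcn at 0.55 (SE 0.1, 0.00538). The 14 Kupffer cell and macrophage markers summed to 37836 to 49802 in high-dosed animals and 30093 to 39032 in controls, and 1 rose, Mrc1 at 0.31 (SE 0.0906, adjusted p = 0.0459). Leaving out any one of 9 arrays ended the call of Mrc1, the largest adjusted p being 0.271 without control 1, and so did leaving out high-dosed animals 8, 10 and 11 (0.24, 0.123), no filter (0.0562), quantile normalization (0.0687), median centring (0.0944), averaging of probe sets (0.0523) or a fit with no variance trend (0.0565). The 2 cholangiocyte markers tested, Epcam and Spp1, summed to 844 to 1536 in high-dosed animals and 551 to 706 in controls. Most of the sum was Epcam, at 665.2 to 1265.2 in high-dosed animals, which rose by 0.83 (SE 0.151, adjusted p = 0.00544). Spp1 did not pass (0.18, adjusted p = 0.362). The listed markers Krt19, Krt7, Cftr and Muc1 lay under the filter, so the sum mainly reads 1 gene. Of 11 stellate cell markers, 6 lymphocyte markers and 3 neutrophil markers 0 passed. The median log2 fold change was 0.266 for endothelial markers, with 11 of 12 above 0. It was 0.266 for Kupffer cell and macrophage markers (12 of 14 above 0) and 0.193 for stellate markers (9 of 11). For neutrophil, lymphocyte and hepatocyte markers it was 0.132 (2 of 3), -0.025 (3 of 6) and -0.007 (7 of 14). Among all genes tested it was 0.017, with 5779 of 10714 above 0 and 10.6% called. The lists were not tested as sets. Among 14 hepatocyte markers Apoa1 rose and Asgr1 fell by 0.18 (SE 0.0439, adjusted p = 0.0242), which was lost without control 1 (-0.14, 0.156), without high-dosed animals 8, 10 and 11 (-0.14, 0.0945) or with no variance trend (0.0552). The part of these shifts in the changes of Nr1i3, Hnf4a and the target genes was not tested.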

How the data were processed

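Total RNA of rat liver was extracted with Trizol and turned into biotin-labelled cRNA for Affymetrix arrays, per the labels' protocols. The authors deposited 1 intensity per probe set and array on a linear scale, from 1 to 34328, and MAS5 was used per the submitters' processing notes, with no version or role named. Scaling between arrays was not stated, the trimmed means (2%) ran from 504.9 to 542.9, and values were used as deposited. Precision is limited by the number of arrays.

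Intensities were transformed to log2 after adding 55.26, the 20th percentile of all values. A filter at the 40th percentile of the mean over all arrays (7.4 on the log2 scale) and removal of 57 Affymetrix controls kept 18625 probe sets and 10714 genes. Gene symbols came from the platform annotation: 20832 probe sets had 1 symbol, 436 several and 9831 none. Of those with 1, 20764 matched the RefSeq gene table of GRCr8 and 0 symbols changed.

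Groups were compared with limma 3.58.1 in R 4.3.3 (lmFit, then eBayes with an intensity trend), two-sided, with Benjamini-Hochberg adjustment over all genes, or over all probe sets for probe sets other than the brightest of a gene. All adjusted p are from these fits and a call is an adjusted p below 0.05. The code was tested on simulated data. The labels do not say that the animals were independent of litter or day, and animal numbers mark no stated batch; numbers 8 and above against 6 and below were used as a block or kept apart only as alternatives. Other alternatives were the pseudocount, filter, normalization, variance trend, averaging of probe sets and leaving out arrays.

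The member genes and all gene lists were chosen with earlier results of these data known. Named genes were the members, up to 3 called genes per pathway list and 2 per cell type list by adjusted p, and fixed sentinel targets. The 3 genes nearest to each of the 3 most variable members were also named, leaving out symbols that start with LOC or RGD. Cpt1a, Ugt2b1, Abcc3, Slc2a2, Rarg, Rora and Ppard were named to complete counts, and of these only Abcc3 was run under the alternatives. The sentinel Cyp2b2 had no probe set with a single symbol and was not analysed here, and another sentinel is not reported here.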

Additional observations from a re-analysis of the deposited data

Results flagged for a closer look

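In 56 probe sets of named genes, the spread of the 8 high-dosed animals was searched for 1 animal far from the rest, by the gap to its nearest neighbour as a share of the whole range, against Dixon's critical value at 95%. It was exceeded in 3, and chance gives about 1 in 20. Of the 10 genes followed here, 0 were among them. High-dosed animal 8 was lowest for Mlxipl, with a share of 0.57. High-dosed animal 4 was highest for Ppargc1a, with a share of 0.582. High-dosed animal 10 was lowest for Nr1d2, with a share of 0.543.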

How the results depend on the processing

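No paired analysis was run because the labels state no pairs. Number 2 labels a control rat and a high-dosed rat, and no label says that equal numbers mark a pair. The call of Nr1i3 was kept under 19 of 23 alternatives and its direction under all 23; that of the second Hnf4a probe set, an alternative run chosen after seeing the data, under 17 of 22, with its direction under all 22. Of 239 values for members under alternatives, 203 kept direction and side of the threshold, 9 lost the call and 27 turned sign; of 982 for other named genes, 858 kept both, 96 lost the call, 4 gained it and 24 turned sign. Within animals numbered 8 and above, where 1 control leaves the spread to the high-dosed animals, the call of Cyp8b1 was kept and those of the other named genes were lost, so that split says little about stability. Within animals numbered 6 and below the calls of Nr1i3, the second Hnf4a probe set, Abcc3, Aldh1a1, Nqo1, Mlxipl, Vnn1, Apoa1, Hsp90ab1, Hif1a, Asgr1, Mrc1 and Hsd11b1 were lost. The cause of these changes was not tested beyond the smaller number of arrays where arrays were left out.

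With 1141 genes called, of which 74.2% were higher (847 against 294 lower), the count was 731 after median centring (64.7% higher, 473 against 258), 612 within animals numbered 6 and below, 3 within animals numbered 8 and above, and 716 without high-dosed animals 8, 10 and 11. Quantile normalization gave 64% higher (591 against 332). Leaving out 1 animal gave between 325 (control 1) and 1406 (high-dosed 2), with 759 without control 2. The number of member genes called was 2 with probe sets averaged (Nr1i3 and Hnf4a), 0 within animals numbered 6 and below and 0 within animals numbered 8 and above, and from 0 to 1 when 1 animal was left out.

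Signs turned for small changes. Within animals numbered 8 and above Nr1i2 was at -0.046, Rxra at 0.0965, Abcb11 at -0.0523, Cyp4a1 at 0.141 and Tmem135 at -0.278. Without high-dosed animals 8, 10 and 11 Rxra was at 0.047, Nr1h3 at 0.0336, Nr0b2 at 0.101 and Pgf at 0.0331. Under quantile normalization Rxra was at 0.018, Abcb11 at -0.00507 and Tmem135 at -0.0137, and under median centring Ahr was at -0.012, Abcb11 at -0.0211 and Tmem135 at -8.91e-05. Ahr was at -0.00229 with no pseudocount, -0.0128 with probe sets averaged and -0.0349 on its other probe set. Hnf4a was at 0.296 with probe sets averaged, 0.0589 within animals numbered 6 and below, and 0.577 and 0.354 on its other probe sets. With 1 animal left out the ranges that crossed 0 were -0.0661 to 0.0882 for Ahr, -0.114 to 0.0613 for Rxra, -0.0469 to 0.0426 for Nr1h3, -0.136 to 0.0719 for Hnf4a, -0.225 to 0.00143 for Nr0b2, -0.0458 to 0.0448 for Abcb11, -0.0829 to 0.11 for Cyp4a1, -0.043 to 0.106 for Tmem135 and -0.0726 to 0.0973 for Ccl4.

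The median of all genes moved by less than 0.1 on the log2 scale under every scaling run. With 3 controls, 1 of them unlike the other 2 for Nr1i3, the size of that change is uncertain, and the probe sets of Ppara and Arnt lay near the signal filter.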
